A study of Mus musculus with 12 samples.

Results

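Translation factors are the proteins that bring a ribosome to an mRNA, start it at the right codon and drive it along the coding sequence. The genes described here are those with symbols that begin in Eif or Eef and a digit, among the genes measured in the ventral hippocampus. Besides the mouse initiation and elongation factors, they include genes for kinases and methyltransferases of these factors and for proteins that bind eIF4E. Eef1e1, which encodes a part of the tRNA synthetase complex, is also included. Below, the word factor stands for all genes kept by this symbol rule. Of 17564 genes listed, 71 had such a symbol. The names Eif3j1 and Eif3j2 (2 genes) and 6 symbols of pseudogenes were left out by the rule, so that 63 factors remained, all annotated as protein coding.

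The libraries came from male mice on a C57BL/6 background, either WT or heterozygous for the BDNF Val66Met allele (BDNF het-Met), a knock-in that replaces valine by methionine in the pro-region of brain-derived neurotrophic factor. Mice of each genotype drank vehicle (VEH, 1% ethanol) or corticosterone (CORT, 25 mg/l in 1% ethanol) for 6 weeks from 2 months of age. Each pairing of genotype and treatment was 1 group of 3 libraries, which gave 4 groups and 12 libraries, each made of RNA pooled from 2 animals. The only expression level used here was a mean over the libraries of log2 CPM (read counts scaled to the size of the library), set by the authors and deposited once per gene, so it has no spread between libraries and no depth behind it. The effect of CORT on these genes was not analysed here, because it is held only as the authors' own comparisons. All values below are therefore levels of the tissue as a whole across the 4 groups, and no difference between levels was tested against replicate error.

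Initiation begins when eIF2 carries the initiator tRNA to the small ribosomal subunit, with eIF1, eIF1A, eIF3 and eIF5 bound to it. The eIF4 factors bind the cap of the mRNA and unwind its leader, and eIF5B joins the large subunit. In elongation eEF1A delivers each aminoacyl-tRNA and eEF2 moves the ribosome by a codon. Phosphorylation of eIF2 by stress-activated kinases and binding of eIF4E by the 4E-BP proteins are the main brakes on initiation, and both have been studied in the hippocampus for their part in synaptic plasticity and memory.

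Levels of different genes are compared per kilobase of annotated exon, as the mean log2 CPM less the log2 of the exon length in kilobases. On this scale the factors had a median of 3.69, against 1.96 for all 17551 genes with an annotation. Of the 63 factors, 55 lay at or above the median of all genes and 18 (28.6%) in the top 10%. They ran from 8.60 for Eef1a1 down to -1.46 for Eef1akmt4. The sum of their CPM was 8335, which is 0.837% of the sum over all genes, and 4 genes (Eef2, Eef1a1, Eef1a2 and Eif4g2) held 41.8% of it.

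**Figure D1:**
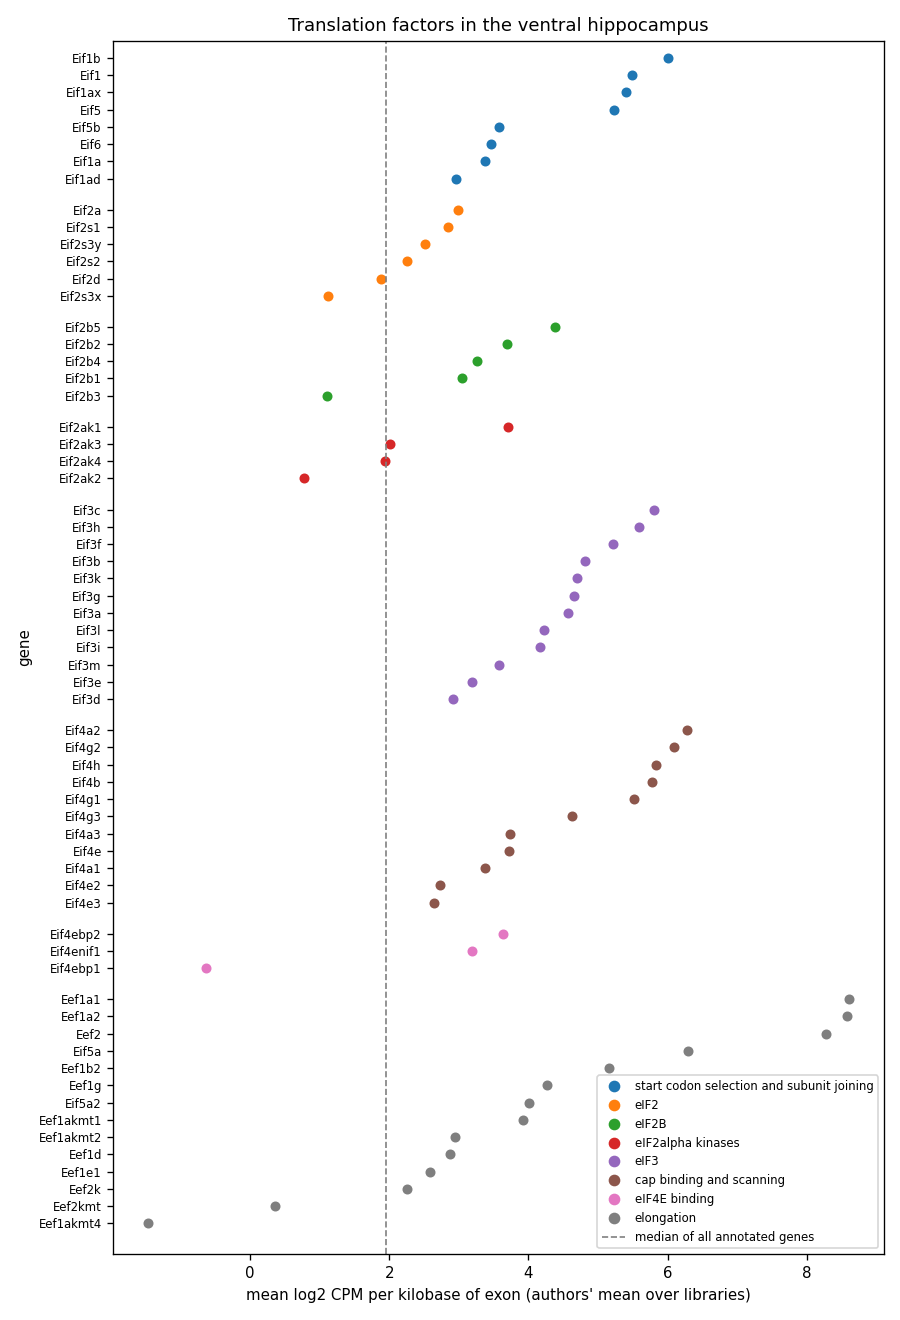
Mean log2 CPM per kilobase of exon (horizontal axis) of the 63 factors, 1 point per gene, grouped by role and ordered within it, with the median of all annotated genes as a dashed line. Eef1a1, Eef1a2 and Eef2 lie above 8 at the right, and Eef1akmt4 and Eif4ebp1 below 0 at the left. Points have no error bars, since each is a mean over all libraries.

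Some of these levels cannot be read alone, because near-identical copies of the same coding sequence lie elsewhere in the genome and are measured as genes of their own. The leading case is eIF4A, the RNA helicase that unwinds the leader of the mRNA. Eif4a1 lies on chromosome 11 (GRCm38, 69666936 to 69672423, minus strand), Eif4a2 on chromosome 16 (23107444 to 23114136, plus strand) and the processed pseudogene Eif4a-ps4 on chromosome 1 (60703932 to 60705149, plus strand). Coding bases 37 to 111 of Eif4a1 are printed with the matching bases of the other genes, 75 bases being the length of a read. Capitals mark bases that differ from Eif4a1.
Eif4a1: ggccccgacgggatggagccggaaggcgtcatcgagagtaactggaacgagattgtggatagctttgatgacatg
Eif4a-ps4: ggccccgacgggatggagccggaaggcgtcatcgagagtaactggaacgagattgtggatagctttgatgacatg
Eif4a2: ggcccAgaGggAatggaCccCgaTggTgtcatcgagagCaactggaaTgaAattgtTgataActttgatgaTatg

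Eif4a-ps4 had 0 differences from Eif4a1 in this stretch and Eif4a2 had 13. Over the whole aligned coding sequence Eif4a-ps4 was identical to Eif4a1 at 1217 of 1218 bases (99.9%), whereas Eif4a2 was identical at 78.1%. A read from such a stretch of Eif4a1 has no base by which it could be told from the pseudogene.

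A like pair was found for the gamma subunit of eIF2, which binds the initiator tRNA and GTP. It is encoded by Eif2s3x on the X chromosome (94188707 to 94212862, minus strand) and by Eif2s3y on the Y chromosome (1010543 to 1028847, plus strand). The processed pseudogene Gm2223 also lies on the X chromosome (33505661 to 33507010, plus strand). Coding bases 70 to 144 of Eif2s3x are shown in the same way, with capitals for bases that differ from Eif2s3x.
Eif2s3x: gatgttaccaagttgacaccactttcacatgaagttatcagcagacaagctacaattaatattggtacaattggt
Gm2223: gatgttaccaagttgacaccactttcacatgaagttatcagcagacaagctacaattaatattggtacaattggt
Eif2s3y: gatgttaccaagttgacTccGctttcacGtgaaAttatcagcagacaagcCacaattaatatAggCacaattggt

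All 1350 bases of Gm2223 were identical to Eif2s3x, over 95.1% of its coding sequence. Eif2s3y differed at 7 of the 75 bases shown and was identical to Eif2s3x at 86.3% of the coding sequence.

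Sharing of sequence with any other gene was then measured for every factor. It was the share of 75-base windows of its transcripts that also occur, on either strand, in a transcript of another annotated gene. Genes that overlap the factor at its own locus are counted here as well as copies elsewhere. Of the 63 factors, 24 shared no window and 39 shared at least 1. The share was above 10% for 11 factors and above 20% for 6. Those 6 were Eef1g (38.0%), Eif3d (34.2%), Eif2s3x (34.2%), Eef1akmt4 (27.4%), Eef1a1 (26.6%) and Eif4a1 (25.4%). For Eif3d the windows were shared with Gm17638, an antisense gene at the same locus, and for Eef1akmt4 mainly with Gm49333, a gene that overlaps it. Of the other factors above 10%, Eef2kmt, Eif5b and Eif1ad also shared windows mainly or only with genes that overlap them.

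Copies at another locus that shared at least 75 windows with a factor and had a level of their own were found for 15 factors, in 23 pairs. In 21 of the pairs the copy was a processed pseudogene, that is, an mRNA copied back into the genome. The others were protein-coding genes, Emd for Eif1 (113 windows) and Gm5580 for Eif4a3 (97 windows). Emd counts as a copy by the window rule, and its whole level was added to Eif1 where copies were added. In 8 of the 23 pairs the copy was listed at a higher level per kilobase than the factor, and in 15 at a lower one. This count depends on the length scaling. On log2 CPM without length, only Gm2223, Eif4a-ps4 and Gm4366 lay above their factors. Gm9892, a copy of Eif2s2, was then the lower of its pair (4.69 against 5.01). Gm2223 was listed at 4.45 log2 CPM per kilobase and Eif2s3x at 1.12. Eif4a-ps4 was listed at 6.52 and Eif4a1 at 3.38 on the same scale. Gm9892, a copy of Eif2s2 (the beta subunit of eIF2), was listed at 4.70 and Eif2s2 at 2.25. Gm4366, identical to the coding sequence of Eef1g at 99.6% of bases, was listed at 5.34 and Eef1g at 4.26. The reverse held for Eef1a1 (8.60) and its copy Gm13456 (7.09), and for Eif3h (5.59) and its copy AC122253.2 (3.91). How reads with several possible origins were counted is not given in the sources used here, and how far reads of a factor were counted for its copy was not tested.

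**Figure D2:**
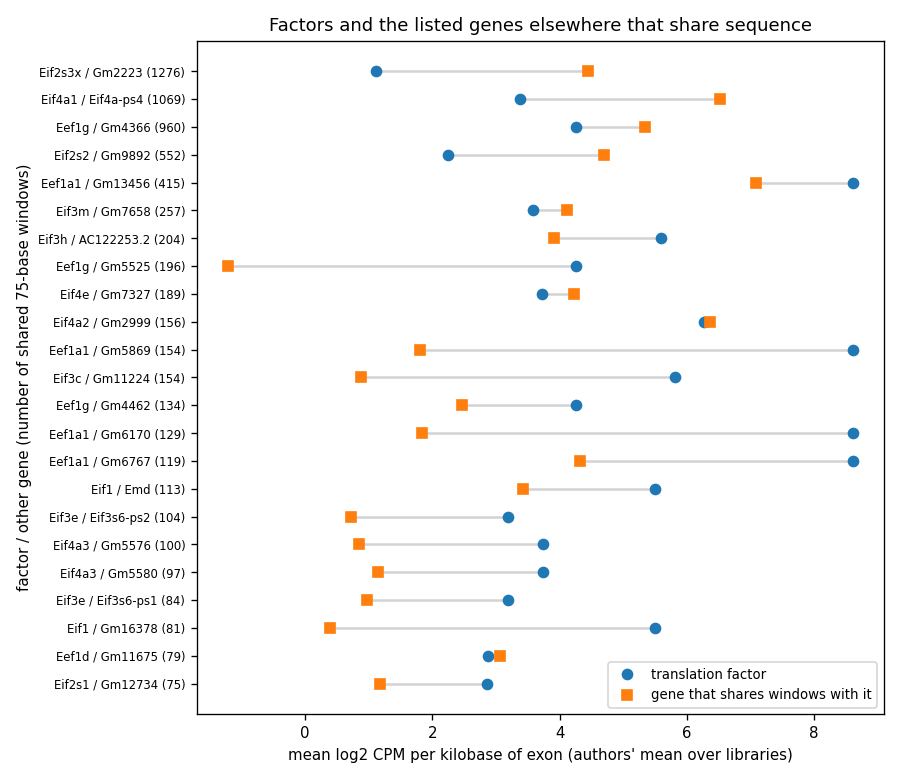
Mean log2 CPM per kilobase of exon (horizontal axis) of 15 factors (circles) and of the 23 measured genes elsewhere that share 75-base windows with them (squares), a line joining each pair. Pairs are ordered by the number of shared windows, given in brackets, and in the 4 pairs with the most the square lies to the right of the circle.

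Among the factors of start codon selection and subunit joining, all 8 lay above the median of all genes, and the median of the role was 4.40 log2 CPM per kilobase. The highest were Eif1b (6.01) and Eif1 (5.49), which encode forms of eIF1, the factor that holds the scanning ribosome open until the start codon is met. Their order was not stable. Eif1 was the higher of the pair on the scale of log2 CPM without length (6.56 against 6.18). It was also the higher, by 0.03, when the longest transcript gave the length. Without length, Eif5 (7.99), Eif1ax (7.79) and Eif5b (6.86) lay above both, so the top of the role depended on the length scaling. Eif1ax, the X-linked gene of eIF1A, stood at 5.40 and the autosomal Eif1a at 3.38. Eif5, which encodes the GTPase-activating protein of eIF2, stood at 5.22, and Eif5b, which encodes the GTPase of subunit joining, at 3.57. Eif5b shared 13.0% of its windows with Rev1, a gene that overlaps it. Eif6, which keeps the large subunit from joining too early, stood at 3.47, and Eif1ad was the lowest of the role at 2.96.

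The eIF2 list had a lower median, 2.38, and none of its 6 genes was in the top 10% of all genes. The subunits of the trimer were listed at 2.85 for Eif2s1 (alpha, the target of the kinases), 2.25 for Eif2s2 (beta), 2.51 for Eif2s3y and 1.12 for Eif2s3x (both gamma). Eif2s3y was thus 1.39 above Eif2s3x on the log2 scale, and 0.79 above it with shared windows taken out of the length, an alternative chosen after seeing the data. With the level of Gm2223 added to that of Eif2s3x, also chosen after seeing the data, the difference was -0.80, with Eif2s3x the higher. With copies added in the same way, log2 CPM without length rose from 5.01 to 5.86 for Eif2s2. For Eif2s1 it rose from 5.16 to 5.24, so that Eif2s2 was then the higher. As listed per kilobase, Eif2a (2.98) and Eif2d (1.88) were the highest and the second lowest of the list. Both encode factors that can bring tRNA to the ribosome apart from eIF2, and neither had a copy to add. With copies added, Eif2s3x and Eif2s2 both lay above Eif2a per kilobase, and only Eif2s2 (5.86) did so without length. The order within the list was therefore not stable.

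The subunits of eIF2B, the complex that reloads eIF2 with GTP, had a median of 3.26. Eif2b5, which encodes the catalytic epsilon subunit, was the highest (4.38), and Eif2b3, which encodes the gamma subunit, the lowest (1.11). Between them lay Eif2b2 (3.69), Eif2b4 (3.26) and Eif2b1 (3.05). The highest and lowest subunits differed by 3.27 on the log2 scale, and by 2.49 when the longest transcript gave the length.

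Of the 4 kinases of eIF2 alpha, Eif2ak1 (HRI, the heme-regulated kinase) was the highest at 3.71. Eif2ak3 (PERK, the kinase of the endoplasmic reticulum) stood at 2.02 and Eif2ak4 (GCN2, which senses uncharged tRNA) at 1.94, both within 0.1 of the median of all genes. Eif2ak2 (PKR, activated by double-stranded RNA) was the lowest at 0.78. Eif2ak1 shared 7.92% of its windows with other genes, mainly with Aimp2, a gene that overlaps it.

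All 12 eIF3 genes lay above the median of all genes, and 4 in the top 10%. Their median was 4.61. eIF3 is the scaffold that binds the small subunit and the mRNA during initiation. The highest were Eif3c (5.81), Eif3h (5.59), Eif3f (5.22) and Eif3b (4.82). Eif3k (4.70), Eif3g (4.65), Eif3l (4.22) and Eif3i (4.17) lay between. The lowest were Eif3m (3.58), Eif3e (3.20) and Eif3d (2.92), of which Eif3d encodes the subunit that can itself bind the cap. The range over subunits was 2.89 on the log2 scale (Eif3c to Eif3d). It was 2.02 when the longest transcript gave the length, with Eif3h (5.90) then above Eif3c (5.86) and Eif3d still the lowest (3.89). Eif3a, the largest subunit, had the highest log2 CPM of the complex without length (7.70) and stood at 4.57 per kilobase. Without length the lowest was Eif3m (4.95) and not Eif3d (5.23). Gm7658, a copy of Eif3m elsewhere, was listed above it at 4.12 per kilobase. With that copy added, chosen after seeing the data, Eif3m rose to 5.66 without length, above Eif3d, which had no copy. With windows shared with other genes taken out of the length and the count left whole, Eif3d stood at 3.53 and Eif3e at 3.23. A level can only stay or rise in this alternative, which was chosen after seeing the data. The shared windows of Eif3d lay in an antisense gene, and both strands were searched, so no order is read from these values.

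In cap binding and scanning all 11 genes lay above the median of all genes and 5 in the top 10%, with a median of 4.63. Eif4a2 was the highest (6.28) and Eif4g2 the next (6.09). Without length Eif4g2 (9.43) lay above Eif4a2 (8.69). With the longest transcript as length, Eif4a2 (7.26) was still the highest, and Eif4h (6.86) lay above Eif4g2 (6.43). Eif4g2 encodes a relative of the eIF4G scaffold that lacks the binding site for eIF4E. The helicase partners Eif4h and Eif4b stood at 5.83 and 5.78. The scaffold genes Eif4g1 and Eif4g3 stood at 5.51 and 4.63. Eif4e, which encodes the cap-binding protein, stood at 3.72, and its relatives Eif4e2 and Eif4e3 at 2.74 and 2.64. With the longest transcript as length, Eif4e2 (3.85) lay only 0.15 under Eif4e (3.99), and Eif4e3 stood at 2.64. Eif4a2 was 2.90 above Eif4a1 on the log2 scale (7.46-fold), and 3.43 above it with the longest transcript. With the level of Eif4a-ps4 added to Eif4a1 and that of Gm2999 to Eif4a2, the difference was 1.22. Eif4a3, which encodes the helicase of the exon junction complex, stood at 3.74.

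Of the genes whose products bind eIF4E, Eif4ebp2 stood at 3.63 and Eif4ebp1 at -0.64, a difference of 4.26 between the 2 genes for 4E-BP repressors, which was 4.13 with the longest transcript and 5.66 without length. Eif4ebp1 was 1 of 2 factors with a mean level below 1 log2 CPM, the other being Eef1akmt4. Neither 4E-BP gene had over 1% of its windows in another gene. Eif4enif1, which encodes a protein that carries eIF4E into the nucleus, stood at 3.19.

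Elongation held both the highest and the lowest factors. Eef1a1 (chromosome 9, 78478449 to 78489151, minus strand) stood at 8.60 and Eef1a2 (chromosome 2, 181147653 to 181157014, minus strand) at 8.57. Both encode eEF1A, and Eef1a2 is known as the form of mature neurons and muscle. The first 75 coding bases of the pair are shown, with capitals for bases of Eef1a2 that differ from Eef1a1.
Eef1a1: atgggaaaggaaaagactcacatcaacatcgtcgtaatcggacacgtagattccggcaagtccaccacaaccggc
Eef1a2: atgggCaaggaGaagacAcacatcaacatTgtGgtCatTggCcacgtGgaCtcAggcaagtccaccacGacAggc

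The sequences shown differed at 13 of 75 bases, and the longest identical run in the whole coding sequence was 23 bases. No 75-base window of Eef1a2 occurred in another gene, while 26.6% of those of Eef1a1 did. Eef1a1 and Eef1a2 were within 0.03 of each other per kilobase of exon, but Eef1a1 was higher by 0.29 without length and by 0.51 with the longest transcript. In alternatives chosen after seeing the data it was higher by 0.48 with shared windows taken out of the length and by 0.33 with copies added. Both could only raise Eef1a1 against Eef1a2, because Eef1a2 had no shared window and no copy.

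Eef2 (chromosome 10) stood at 8.28, and its kinase Eef2k, which halts elongation by phosphorylating eEF2, at 2.26. The subunits of the exchange factor of eEF1A were listed at 5.16 for Eef1b2, 4.26 for Eef1g and 2.88 for Eef1d. With the longest transcript as length they stood at 5.54, 4.74 and 4.06, in the same order. With copies added, chosen after seeing the data, log2 CPM without length rose from 5.64 to 6.81 for Eef1g. For Eef1d it rose from 5.58 to 5.77. Eef1b2 had no copy to add, and Eef1g was then above it, so the order of Eef1b2 and Eef1g was not stable. Eif5a, which encodes a factor that relieves stalled ribosomes and carries the amino acid hypusine, stood at 6.30 and its paralog Eif5a2 at 4.02. Eif5a2 minus Eif5a was -2.28 per kilobase, -1.20 without length and -3.01 with the longest transcript, so that the sign held and the size did not. Of the genes for methyltransferases of elongation factors, Eef1akmt1 stood at 3.92, Eef1akmt2 at 2.95, Eef2kmt at 0.36 and Eef1akmt4 at -1.46. Eef2kmt shared 17.0% of its windows with other genes, mostly with Alg1 at the same locus. Eef1e1, which encodes a part of the tRNA synthetase complex, stood at 2.59.

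**Figure D3:**
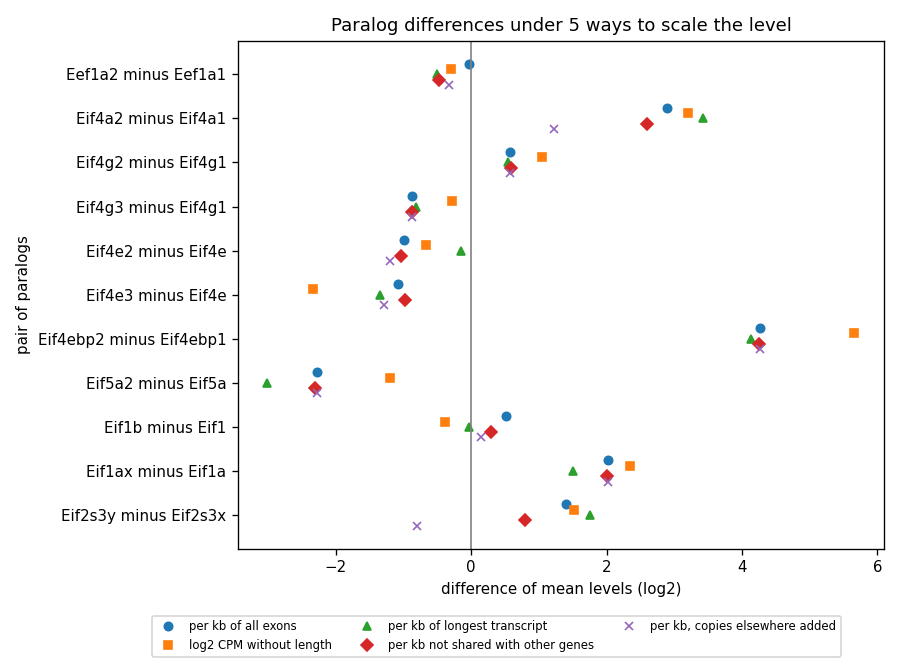
Difference of mean level between paralogs (log2, horizontal axis) for 11 pairs, with 1 symbol for each of 5 ways to scale the level. Eif4a2 minus Eif4a1 and Eif4ebp2 minus Eif4ebp1 lie to the right of 0 in all 5, whereas Eif1b minus Eif1 and Eif2s3y minus Eif2s3x have symbols on both sides of 0.

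Genes that mark cell types of the brain, and not the ventral hippocampus as such, were also read. The neuronal genes Rbfox3, Snap25 and Syt1 lay between the 93.9th and 99.8th percentile of all genes per kilobase, genes of astrocytes between 89.6 and 99.7, of oligodendrocytes between 87.2 and 99.4 and of microglia between 78.9 and 83.9. Choroid plexus genes ran from the 45.1st to the 99.9th percentile. The share of each cell type in the level of a factor was not tested.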

How the data were processed

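RNA-seq of 12 libraries in 4 groups was made from stranded libraries read as single ends of 75 bases at a stated depth near 35 to 40 M reads. The authors discarded reads of a quality score below 15, aligned the rest with STAR to GRCm38 with Ensembl annotation, assigned them to genes with featureCounts and modelled the counts by limma-voom. Not given in the sources used here were tool versions, the gene filter, normalization factors, the strand setting and the handling of multiply mapped reads. The authors deposited 2 tables, 1 per genotype, whose mean log2 CPM over libraries was identical in both and is the value used here. The other columns hold the authors' own comparisons of VEH and CORT (fold changes, standard errors, test statistics and p-values) and were not used. No column held values per library, so no test was run and the depth per library is unknown.

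Exon lengths, positions and transcripts came from GENCODE M21 on GRCm38, matched by Ensembl identifier (17551 of 17564 genes). Overlapping exons of all transcripts of a gene were merged. Windows of 75 bases of all transcripts of a factor were searched exactly, on both strands, in the transcripts of all other genes, and a copy was a gene at another locus with at least 75 windows in common. Copies without an annotation are not seen by this search. Coding sequences were aligned over their full length with Biopython 1.88, taking the longest complete coding sequence of each gene. The window search and lengths were tested on simulated data. Analyses used Python 3.11.15 and pandas 2.3.3.

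Factors were grouped by role lists. The rule named the highest and lowest member of each role, its defining subunits and fixed pairs of paralogs. The members, roles and pairs of paralogs were chosen with earlier results of these data known. Eif4ebp3, Eef1akmt3 and Eef1aknmt of these lists were not analysed here. Alternatives were the length of the longest transcript, no length, genes of at least 1 log2 CPM, protein-coding genes alone and, chosen after seeing the data, lengths without shared windows and levels with copies added. Where shared windows were taken out of the length, the count was left whole, so that a level could only stay or rise.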

Additional observations from a re-analysis of the deposited data

How the results depend on the processing

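The median percentile of the 63 factors among all genes was 75.0 by log2 CPM. It was 78.6 per kilobase of all exons, 77.5 per kilobase of the longest transcript, 70.6 among genes of at least 1 log2 CPM (where 61 factors remained) and 70.2 among protein-coding genes. Of the 11 paralog differences, 9 had the same sign under all 4 alternatives. Adding copies could not change the sign for Eif4g2, Eif4g3, Eif4ebp2, Eif5a2 and Eif1ax, whose pairs had no copies to add. Nor could it for Eef1a2, Eif4e2 and Eif4e3, since only the higher gene of the pair, Eef1a1 or Eif4e, had copies. For Eif4g3 minus Eif4g1, taking out shared windows also left the value as it was. For the pairs of Eef1a2, Eif4e2, Eif5a2 and Eif4g2 it could only widen the gap, since the lower gene shared no window. Eif1b minus Eif1 was 0.51 per kilobase of all exons, -0.38 without length and -0.032 with the longest transcript. Eif2s3y minus Eif2s3x was 1.39 per kilobase of all exons and -0.80 with copies added. No paired analysis was possible because the tables used hold no values per library. For the same reason no fit of the CORT effect, no leaving out of replicates and no other pseudocount was run, and no residual spread is given. A listed mean has no error here, so gaps between levels were not tested. The gap of Eef1a1 over Eef1a2 was 0.03 per kilobase of all exons and between 0.29 and 0.51 in the 4 alternatives. Of these, taking out shared windows and adding copies could only widen it.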
